A study of Mus musculus with 468 samples.

Results

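Transcripts of 9 genes of insulin signalling and glucose uptake (Insr, Irs1, Irs2, Pik3r1, Akt2, Tbc1d4, Slc2a4, Foxo1 and Grb14) were followed in mouse adipose tissue. They were picked by gene symbol, by a rule that uses no measured value but with earlier results of these data known, from the 23180 genes in the files, and all 9 were among the 18380 genes that passed a filter on low counts. The tissue came from Diversity Outbred mice, a stock bred from several inbred founder strains in which nearly all animals differ in genotype, and each mouse gave 1 library. Every mouse was fed the same high-fat, high-sugar chow (45 percent fat in the labels), so there was no mouse on another diet to compare with, and the libraries formed a single group. The labels name no sex, age, generation or batch, and per the methods of the study both sexes were used, the fat came from the gonadal pad and the mice were adult at harvest. The questions were how far these transcripts differed between mice, whether they rose and fell together, and how they related to Lep and Adgre1.

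Insulin released after a meal binds its receptor on fat cells, and the active receptor phosphorylates the docking proteins IRS1 and IRS2. These recruit PI3-kinase, which leads to activation of the kinase AKT2, and AKT2 inactivates TBC1D4 so that vesicles carrying the glucose transporter GLUT4 fuse with the cell surface. AKT also keeps the transcription factor FOXO1 out of the nucleus, and GRB14 binds the active receptor and inhibits it. Lep encodes leptin, a hormone that fat cells make in proportion to the fat they store, and Adgre1 encodes F4/80, a surface protein of macrophages.

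Total counts were 35.3 M to 137.8 M per library (median 82.04 M). All 12 adipocyte markers were detected, with a summed level of 11974 CPM or more in every library (CPM, counts scaled to a common library size with TMM factors, median 30546 CPM). Summed macrophage markers ranged from 390 to 6038 CPM, brown fat markers from 33.9 to 6808 CPM, skeletal muscle markers from 2.95 to 8796 CPM and liver markers from 2.98 to 6212 CPM. Some libraries thus held many transcripts of muscle or liver marker genes, and their source was not tested. Y chromosome genes had counts in 51.5% of the libraries and none in the other 48.5%. The cluster with counts is as large as the group of males that the paper lists for adipose tissue. The cluster without is as large as its group of females. The labels name no sex for single mice, so this match rests on the totals. Values over all libraries join both sexes, and relations were also computed inside each of these clusters. In 4 libraries that stood apart, either CT010467.1, a ribosomal RNA sequence, took over 10% of the counts or Xist was under 100 CPM without Y chromosome counts, and the counts of members called were the same without them.

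**Figure D1:**
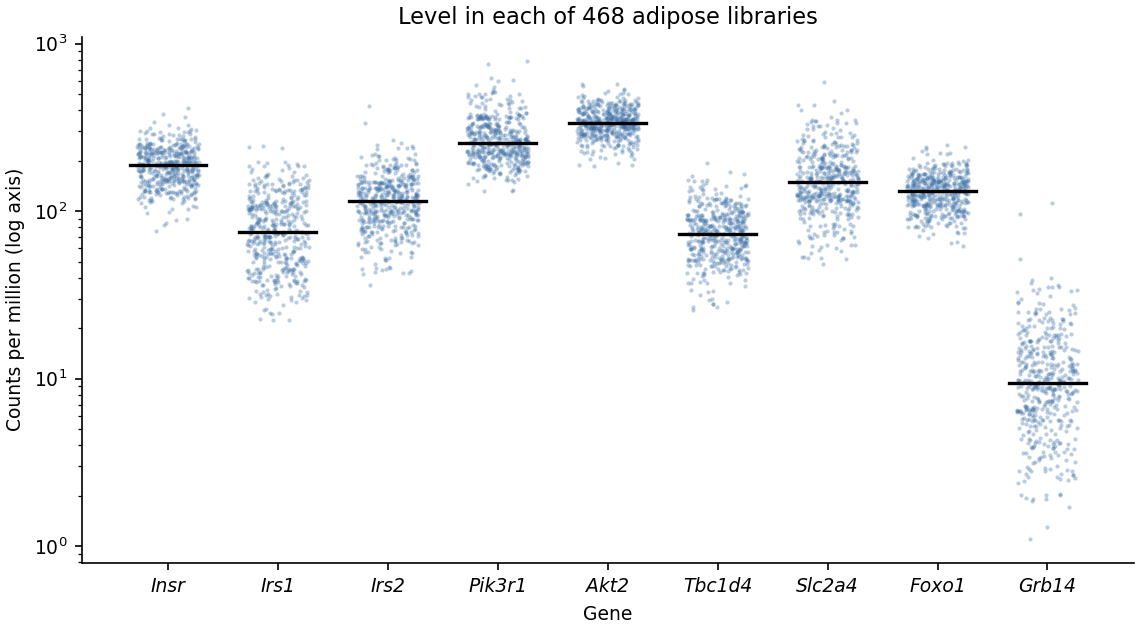
Level of each of the 9 genes in the adipose libraries, in CPM on a log axis. Each point is 1 library and the black line is the median. The points of Akt2 span the narrowest range, from 185.4 to 575.6 CPM, and those of Grb14 the widest, from 1.10 to 111.2 CPM.

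Levels between genes were compared per kilobase of exon, because longer transcripts collect more reads. On the scale of CPM per kb, the medians were 47.5 for Akt2, 42.8 for Slc2a4, 25.3 for Pik3r1, 18.1 for Irs2, 15.2 for Foxo1, 13.7 for Insr, 9.53 for Tbc1d4, 8.20 for Irs1 and 1.31 for Grb14. Neighbours in this order differed by more than 1 SD of their difference over libraries in 3 of 8 cases. Slc2a4 was above Pik3r1 by 0.71 ± 0.60 on the log2 scale (SD over libraries), Insr above Tbc1d4 by 0.51 ± 0.44, and Irs1 above Grb14 by 2.67 ± 1.48. The other neighbours did not differ beyond their spread. With the longest transcript as the length, Insr moved to the 4th place at 20.1 CPM per kb and Grb14 rose to 3.38, still the lowest. This length made Slc2a4 exceed Pik3r1 by 0.38 less and Irs1 exceed Grb14 by 1.36 less. Both differences then lay within 1 SD, while those of Akt2 over Slc2a4 (medians of 74.5 and 46.6) and Pik3r1 over Irs2 (35.9 and 18.1) went beyond it. Insr was then above Foxo1 (20.1 and 15.2), also by more than 1 SD. The difference of Insr over Tbc1d4 stayed beyond 1 SD.

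Insr (ENSMUSG00000005534, GRCm38 chromosome 8, 3122061 to 3279617, minus strand) encodes the insulin receptor. Its level was 75.97 CPM in the lowest library (mouse DO200), 187.9 CPM in the median and 414.5 CPM in the highest (mouse DO349), a 5.46-fold range. The lowest library had the third highest Adgre1, 389.9 CPM, and its summed adipocyte markers, 12230.5 CPM, were the next to lowest. The highest library had the lowest Lep of all, 0.716 CPM, which rests on 70 counts, while its summed adipocyte markers (32039 CPM) and macrophage markers (1197 CPM) were near the middle. The biological coefficient of variation (BCV), the spread between mice beyond counting error, was 0.265, against a median of 0.187 over the 9508 genes averaging 10 CPM or more. Among those genes, Insr varied most closely with Sik2, a kinase of the salt-inducible family (r = 0.874 over all libraries), Aldh6a1, an enzyme of valine breakdown (r = 0.872), and Txlng (r = 0.869). The lowest r was with Pfn1, the actin-binding protein profilin (r = -0.848). Sik2, Aldh6a1 and Txlng each overlap another annotated gene, and Insr itself overlaps Vmn2r-ps88 and Gm16180 on the opposite strand, and the sources used here do not say whether reads were counted by strand, so reads from overlaps cannot be told apart.

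Irs1 (ENSMUSG00000055980, chromosome 1, 82233101 to 82291416, minus strand) and Irs2 (ENSMUSG00000038894, chromosome 8, 10984681 to 11008458, minus strand) encode the docking proteins. Irs1 was at 22.4 CPM in the lowest library, 75 CPM in the median and 244.4 CPM in the highest, and Irs2 at 36.1, 114.6 and 424.9 CPM. Both peaks belonged to mouse DO330, which had the next to lowest Lep (11.9 CPM) and the highest summed brown fat markers (6808 CPM). The next highest values were close behind for Irs1 (240.6 CPM) and lower for Irs2 (336.97 CPM, in mouse DO349). The lowest Irs1 was in mouse DO088, which had the highest summed macrophage markers, 6038 CPM. BCV was 0.480 for Irs1, higher than in 91% of genes averaging 10 CPM or more, and 0.366 for Irs2, higher than in 83.2%.

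The nearest gene to Irs1 by r was Gm9747 (r = 0.896), which overlaps Irs1 on the opposite strand, so reads of the pair may have been shared. It was followed by Timm21, a subunit of the mitochondrial import machinery (r = 0.822), and Acsm3, an acyl-CoA synthetase (r = 0.807), and the lowest r was with Arpc2, a subunit of the actin-branching Arp2/3 complex (r = -0.808). Irs2 followed Pck1, the enzyme PEPCK of glyceride and glucose synthesis (r = 0.716), Pnrc1 (r = 0.696) and Kif13a (r = 0.686), and had its lowest r with Aopep (r = -0.648). Timm21, Acsm3, Kif13a and Aopep also overlap other annotated genes. Irs1 and Irs2 had r = 0.567 with each other.

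Promoter sequence was taken from RefSeq on GRCm38.p6, which listed 11 windows for 7 of the 9 genes, each with 250 bases before and 50 after an annotated start. Insr and Slc2a4 had no entry. The windows of Irs1 (chr1:82291440-82291689) and Irs2 (chr8:11008930-11009179), both on the minus strand, are shown because these paralogues varied together and were the only members whose windows held an E-box or an insulin response sequence. The 250 bases before the start run 5′ to 3′, and capitals mark CACGTG, the E-box, and TGTTTTG, which is the insulin response sequence CAAAACA read on the other strand.
Irs1: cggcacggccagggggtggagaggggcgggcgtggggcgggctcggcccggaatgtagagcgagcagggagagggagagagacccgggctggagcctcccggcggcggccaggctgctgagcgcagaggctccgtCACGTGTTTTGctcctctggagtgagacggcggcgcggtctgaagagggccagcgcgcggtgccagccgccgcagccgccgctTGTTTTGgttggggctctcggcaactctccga
Irs2: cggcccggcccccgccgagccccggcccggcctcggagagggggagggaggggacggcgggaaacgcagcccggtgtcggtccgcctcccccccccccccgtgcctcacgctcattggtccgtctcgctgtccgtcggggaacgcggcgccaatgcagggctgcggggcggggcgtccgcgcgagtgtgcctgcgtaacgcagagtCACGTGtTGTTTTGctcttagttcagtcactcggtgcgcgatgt

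Counted from the start, the E-box of Irs1 begins at -115 and runs into a TGTTTTG that begins at -111, with which it shares the bases TG, and another TGTTTTG begins at -32. In Irs2 the E-box begins at -44 and TGTTTTG at -37, with 1 base between them. RefSeq places the start of Irs1 at 82291439, 23 bases from that of GENCODE, and the start of Irs2 at 11008929, upstream of the GENCODE start at 11008458. In all windows, 7 motifs were searched on both strands. CACGTG was in 7.15% of the 32851 windows and CAAAACA in 6.28%, and of the 7 genes only Irs1 and Irs2 held either. The FOXO element GTAAACA (3.65% of windows), the nuclear receptor motif TGACCT (16.3%) and its core GGTCA (40.5%), which lies inside TGACCT read on the other strand, were in no window of the 7 genes. CCGCCC (35.7%) was in windows of all 7, and CACCC (57.5%) in those of Akt2, Grb14, Irs1 and Pik3r1. An E-box whose start lies within 10 bases of that of a CAAAACA or TGTTTTG, a pattern looked for after these windows had been seen, was in 9 windows of 8 genes, or 0.0274%. Irs1 and Irs2, whose windows gave the pattern, are among these 8 genes, so this share is not a test of it. Such matches describe letters and show no binding.

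Pik3r1 (ENSMUSG00000041417, chromosome 13, 101680563 to 101768217, minus strand) encodes the regulatory subunits of PI3-kinase that dock on phosphorylated IRS proteins. It was at 132.7 CPM in the lowest library, 255.3 CPM in the median and 792.4 CPM in the highest, with a BCV of 0.305. Its nearest genes were Cul5, a ubiquitin ligase scaffold (r = 0.551), Fam126b (r = 0.520) and Aacs, acetoacetyl-CoA synthetase (r = 0.513), and its lowest r was -0.437, with Stambpl1. These are the smallest values among the 9 genes, so no gene of that abundance followed Pik3r1 as closely as Sik2 followed Insr. Cul5, Fam126b and Aacs overlap other annotated genes, and Pik3r1 overlaps Gm36638 on its own strand.

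Akt2 (ENSMUSG00000004056, chromosome 7, 27591552 to 27640826, plus strand) encodes the main AKT kinase of glucose uptake. It had the narrowest range, from 185.4 CPM in mouse DO232 through a median of 338.5 CPM to 575.6 CPM in mouse DO236, a 3.10-fold range, and the lowest BCV of the 9, 0.197. It followed Mknk2, a kinase of the translation factor eIF4E (r = 0.831), Ppp2r5a, a subunit of protein phosphatase 2A (r = 0.805), and Flad1, which makes the cofactor FAD (r = 0.792). Its lowest r was with Wsb1 (r = -0.732). Flad1 overlaps Lenep, and no annotated gene overlaps Akt2.

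Tbc1d4 (ENSMUSG00000033083, chromosome 14, 101442360 to 101609191, minus strand) encodes AS160, which holds GLUT4 vesicles inside the cell until AKT phosphorylates it. It was at 25.6 CPM in the lowest library, 73.2 CPM in the median and 194.7 CPM in the highest (mouse DO350), with a BCV of 0.346. Its nearest genes were Pdhx, a component of the pyruvate dehydrogenase complex (r = 0.671), Cs, citrate synthase of the citric acid cycle (r = 0.670), and Slc25a44, a mitochondrial carrier of branched-chain amino acids (r = 0.664). The lowest r was with the tetraspanin gene Cd9 (r = -0.649). Tbc1d4 overlaps Gm34417 on its own strand, Cs overlaps Gm23182, and Cd9 overlaps Gm28809 and Gm26728.

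Slc2a4 (ENSMUSG00000018566, chromosome 11, 69942539 to 69948188, minus strand) encodes GLUT4 itself. It was at 48.3 CPM in the lowest library (mouse DO542), 148.8 CPM in the median and 589.1 CPM in the highest (mouse DO222), a 12.2-fold range, and its BCV was 0.419. The highest library was 7th from the top for summed brown fat markers (4220 CPM) and next to the bottom for summed macrophage markers (404.7 CPM), and its skeletal muscle markers, which could mark another tissue rich in GLUT4, summed to 5.91 CPM. The lowest library had summed macrophage markers of 4143 CPM, the 7th highest. The nearest genes were Ndufaf1, an assembly factor of respiratory complex I (r = 0.861), Gbe1, the glycogen branching enzyme (r = 0.857), and Mpc1, the mitochondrial pyruvate carrier (r = 0.852), of which Mpc1 overlaps 4930506C21Rik. The lowest r was with Clic1, an intracellular chloride channel gene (r = -0.822).

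Foxo1 (ENSMUSG00000044167, chromosome 3, 52268336 to 52353221, plus strand) encodes the transcription factor that insulin restrains. It was at 62.1 CPM in the lowest library, 132.1 CPM in the median and 248.9 CPM in the highest (mouse DO032), with a BCV of 0.244. It followed Zbtb16, a zinc finger factor (r = 0.756), Fam214a (r = 0.733) and Syde2 (r = 0.729), and its lowest r was with Slc35f6 (r = -0.663). Foxo1 overlaps Gm20402 and Gm38034, and Slc35f6 overlaps Mir5625.

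Grb14 (ENSMUSG00000026888, chromosome 2, 64912476 to 65024987, minus strand) encodes the receptor inhibitor and was both the scarcest and the most variable of the 9. It was at 1.10 CPM in the lowest library (mouse DO349), 9.44 CPM in the median and 111.2 CPM in the highest (mouse DO032), a 100.7-fold range, and its BCV of 0.667 was above that of 96% of genes averaging 10 CPM or more. Its own mean, 11.6 CPM, was near that cut, and among all genes past the filter its BCV was above that of 82%. The next highest library had 96.3 CPM, and 95% of libraries were below 26.2 CPM. Mouse DO032, which also had the highest Foxo1, had the third lowest summed adipocyte markers (12756 CPM). Mouse DO349, with the lowest Grb14, had the highest Insr and the lowest Lep. Grb14 followed Trp53inp2 (r = 0.596), the endocytic adaptor gene Epn2 (r = 0.595) and Bcat1, a transaminase of branched-chain amino acids (r = 0.574), and its lowest r was with Slc43a1, an amino acid transporter (r = -0.611). Epn2 overlaps Gm12272, and Bcat1 overlaps 3 annotated genes.

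All members but Grb14 varied together across mice, and Grb14 varied against them. Among the 36 pairs, Pearson's r of log2 CPM was positive in all 28 pairs without Grb14, from 0.133 to 0.742 with a median of 0.446, and negative in all 8 pairs with Grb14, from -0.473 to -0.105. With no TMM factor the median r of all 36 pairs was 0.19, against 0.40 with it, and given the adipocyte score it was 0.16. Every pair passed the threshold in a two-sided permutation test (100000 resamples, Benjamini-Hochberg adjustment over the 36 pairs, largest adjusted p = 0.0229 for Akt2 with Grb14, smallest 1.16e-05 from a p of 1e-05, the smallest that these resamples can give). With this many libraries small correlations pass, and of all pairs of genes averaging 10 CPM or more, 35% had a positive and 33.5% a negative r at least as large as the smallest called here. Spearman's rho had the same sign in each pair. The closest pair among the 36 was Akt2 with Slc2a4, the kinase and the transporter it sends to the surface (r = 0.742, rho = 0.725). Insr with Irs1, the receptor and its docking protein, came next (r = 0.738, rho = 0.733). Many genes outside the 9 had a higher r with each of these genes than its partner had. The highest r was 0.861 for Slc2a4 (with Ndufaf1), 0.831 for Akt2 (with Mknk2) and 0.874 for Insr (with Sik2). For Irs1 it was 0.896, with the overlapping Gm9747. The share of all gene pairs with an r as large as in these pairs was not computed. The weakest positive pairs were Irs2 with Pik3r1 (r = 0.133, rho = 0.146) and Pik3r1 with Foxo1 (r = 0.171, rho = 0.165). Grb14 had its lowest r with Irs1 (-0.473), Irs2 (-0.470) and Insr (-0.432), the receptor and its docking proteins. In the libraries without Y chromosome counts the lowest r of any pair was only -0.214, against -0.535 in those with them. The leading principal component of the 9 genes held 50.6% of their variance, with loadings of the same sign for 8 genes and the opposite sign for Grb14.

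**Figure D2:**
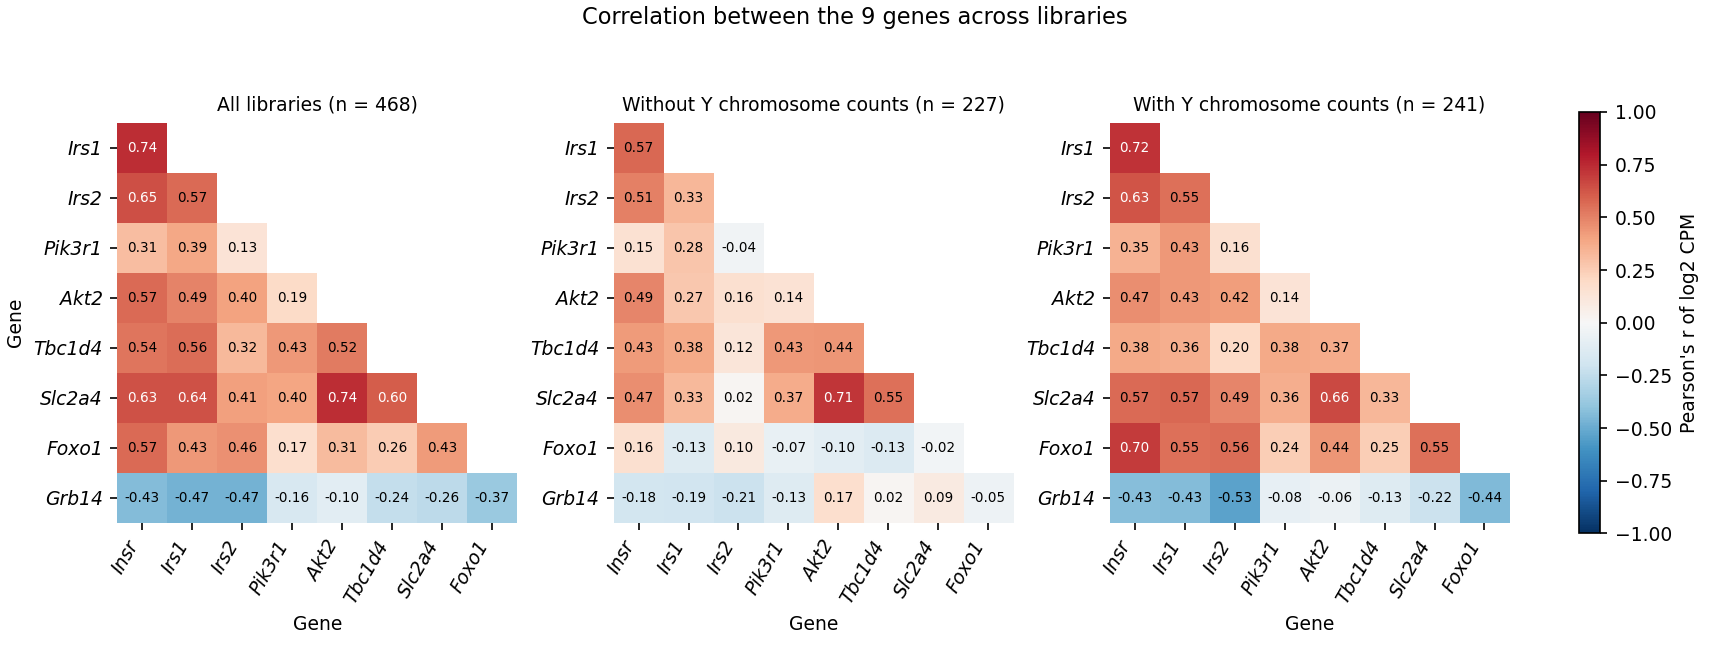
Pearson's r of log2 CPM for the 36 pairs of genes, over all libraries (left) and those without (middle) and with Y chromosome counts (right), with red for positive and blue for negative values. Over all libraries every pair without Grb14 is red and every pair with it is blue, and the pairs of Foxo1 with the 7 genes other than Grb14 are pale in the middle panel, from -0.13 to 0.16, and red in the right panel, from 0.24 to 0.70.

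Fewer pairs were called within the clusters, whose sizes match the paper's groups of females (without Y chromosome counts) and males (with them). In the libraries without Y chromosome counts, 19 pairs were positive and 3 negative past the threshold and 14 were not called, and in those with them 28 were positive, 5 negative and 3 not called. Foxo1 had r between 0.24 and 0.70 with each of the 7 other genes apart from Grb14 in the libraries with Y chromosome counts, all called. In those without, its r ranged from -0.13 with Tbc1d4 to 0.16 with Insr, and only the latter passed (adjusted p = 0.0245, permutation test). For the pair of Akt2 and Slc2a4, r was 0.71 without and 0.66 with Y chromosome counts, and for Insr with Irs1 it was 0.57 and 0.72. Grb14 with Akt2 had r = 0.17 without (adjusted p = 0.0208) and -0.06 with Y chromosome counts. Whether the clusters differ was not tested.

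Mice with more Lep transcript had less of the 8 signalling and transport genes and more Grb14. Lep was at 0.716 CPM in the lowest library, 1128 CPM in the median and 5423 CPM in the highest. In edgeR's quasi-likelihood test over all genes, all 9 members passed an adjusted p of 0.05, 8 falling and 1 rising, where 41.3% of the 18379 genes tested fell and 37.9% rose with Lep. Irs1 had the steepest fall, by 0.31 ± 0.014 on the log2 scale per doubling of Lep (SE, adjusted p = 1.41e-75), or 19.4% less transcript for each doubling. Slc2a4 fell by 0.19 ± 0.015, Irs2 by 0.17 ± 0.012, Insr by 0.16 ± 0.0071 and Tbc1d4 by 0.13 ± 0.013. Foxo1 fell by 0.070 ± 0.0092, Pik3r1 by 0.063 ± 0.012 and Akt2 by 0.062 ± 0.0073, less than 0.10 each. Grb14 rose by 0.28 ± 0.025 (adjusted p = 3.04e-24), or 21.1% per doubling. The median slope of all genes was -0.0045. In bulk tissue, fewer cells of a type and less RNA per cell cannot be told apart.

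The same relations as correlations were closest for Irs1 (r = -0.722, rho = -0.777) and Insr (r = -0.714, rho = -0.745) and weakest for Pik3r1 (r = -0.216, rho = -0.248). Grb14 had r = 0.513 (rho = 0.517). For all 9 the permutation p was 1e-05, the smallest that 100000 resamples can give, and an adjusted p of 1e-05 over the 18 relations to Lep and Adgre1. Without the 2 libraries farthest from the median of Lep, r was -0.730 for Irs1, -0.705 for Insr, -0.246 for Pik3r1 and 0.502 for Grb14. In the libraries without Y chromosome counts 7 of the 9 relations were called, with -0.697 for Insr and -0.616 for Irs1, but not Foxo1 (r = -0.0050, adjusted p = 0.94, permutation test) nor Pik3r1 (r = -0.080, adjusted p = 0.245). In those with Y chromosome counts all 9 were called, with -0.583 for Insr, -0.635 for Irs1 and -0.406 for Foxo1. Inside both clusters r was smaller in size than over all libraries for Slc2a4 (-0.267 without and -0.310 with Y chromosome counts, against -0.477), Tbc1d4 (-0.252 and -0.205, against -0.414) and Akt2 (-0.230 and -0.146, against -0.342). Over 5 blocks of consecutive mouse numbers and 5 of library numbers, 8 of the 9 relations had the same sign in all 10 blocks, and that of Pik3r1 was 0.0966 in the block of highest library numbers against -0.433 to -0.106 in the others.

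**Figure D3:**
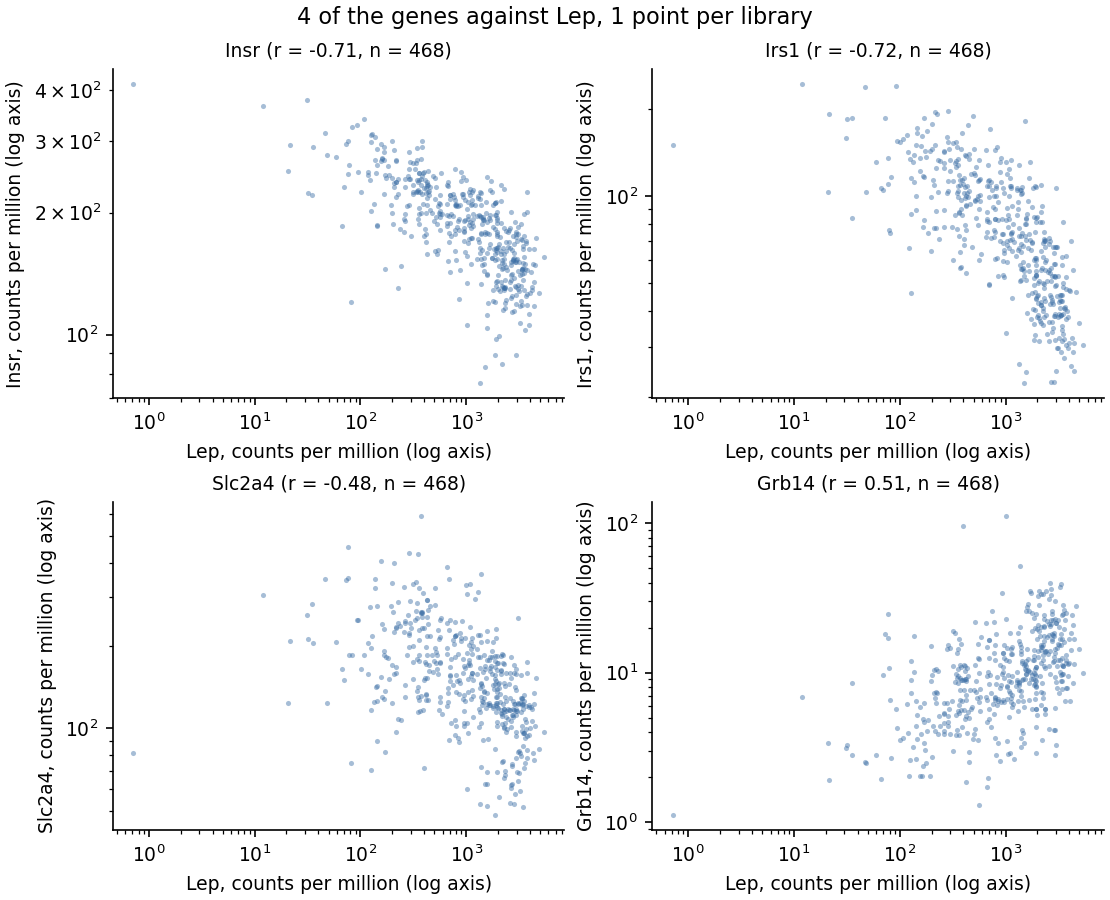
Level of Insr, Irs1, Slc2a4 and Grb14 against Lep in all libraries, in CPM on log axes, with 1 point per library. The first 3 genes fall from left to right (r = -0.71, -0.72 and -0.48, the last -0.27 and -0.31 inside the clusters without and with Y chromosome counts) and Grb14 rises (r = 0.51), and 1 library with Lep at 0.716 CPM lies far to the left.

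Mice with more Adgre1 transcript had less of the same 8 genes. Adgre1 was at 10.7 CPM in the lowest library, 47.5 CPM in the median and 656.5 CPM in the highest, that of mouse DO021. In that library, the 8 genes apart from Akt2 (percentile 8.55 over libraries) lay between percentile 47.9 (Insr) and 72.9 (Irs1). Its Grb14 was at percentile 1.28 and its summed macrophage markers were at 85.5. All 9 members passed the edgeR test, 8 falling and 1 rising, where 43% of the 18379 genes tested fell and 34.4% rose with Adgre1. Per doubling of Adgre1, Irs1 fell by 0.53 ± 0.027 on the log2 scale, or by 30.6% (SE, adjusted p = 2.04e-60), and Slc2a4 by 0.48 ± 0.023, or by 28.2% (adjusted p = 1.10e-67). Irs2 and Insr fell by 0.30 (± 0.025 and ± 0.014), Tbc1d4 by 0.24 ± 0.023, Foxo1 by 0.22 ± 0.016, Pik3r1 by 0.19 ± 0.022 and Akt2 by 0.17 ± 0.012. Grb14 rose by 0.28 ± 0.048 (adjusted p = 2.30e-08). The median slope of all genes was -0.017.

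As correlations, r with Adgre1 was -0.698 for Insr, -0.695 for Slc2a4 and -0.688 for Irs1 (rho = -0.672, -0.667 and -0.684), and it was weakest for Grb14 (r = 0.292, rho = 0.306) and Pik3r1 (r = -0.350, rho = -0.304), with a permutation p of 1e-05 for all 9. Without the 2 libraries farthest from the median of Adgre1, r was -0.703 for Insr, -0.706 for Slc2a4, -0.702 for Irs1 and 0.321 for Grb14. Inside the cluster without Y chromosome counts, the relation was not called for Foxo1 (r = -0.127, adjusted p = 0.066, permutation test) and for Grb14, whose r was -0.112 (adjusted p = 0.106), while all 9 were called in the other cluster, with -0.609 for Foxo1 and 0.319 for Grb14. All 9 relations kept their sign in each of the 10 blocks. With Xist and Y chromosome genes in the edgeR model the Grb14 slope on Adgre1 was no longer called (adjusted p = 0.0746), while r given these genes was 0.121 and passed (adjusted p = 0.00898, permutation test). With the adipocyte score in the edgeR model it was not called either.

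Lep and Adgre1 varied together over the same libraries (r = 0.591, rho = 0.721), so the slopes on either share all their data, and both genes were also put in 1 model. There, the Lep slope remained past the threshold for Irs1 (-0.21 ± 0.014), Irs2 (-0.12 ± 0.013), Insr (-0.11 ± 0.0075), Tbc1d4 (-0.081 ± 0.015) and Slc2a4 (-0.062 ± 0.014), against 36% of all genes that fell. It did not pass for Foxo1 (-0.012 ± 0.0097, adjusted p = 0.264), Akt2 (-0.011 ± 0.0081, adjusted p = 0.226) or Pik3r1 (-0.0085 ± 0.014, adjusted p = 0.591). For Grb14 the Lep slope was 0.30 ± 0.033, against 0.28 ± 0.025 without Adgre1, and 33.9% of all genes rose. The Adgre1 slope with Lep in the model passed for all 8 falling genes (39.2% of all genes fell and 27.3% rose), with the largest size for Slc2a4 (-0.42 ± 0.028) and Irs1 (-0.32 ± 0.029). It did not pass for Grb14 (-0.059 ± 0.056, adjusted p = 0.354), with the opposite sign to the slope on Adgre1 alone. In this model both slopes passed for Insr, Irs1, Irs2, Tbc1d4 and Slc2a4, the Adgre1 slope passed without that of Lep for Pik3r1, Akt2 and Foxo1, and the Lep slope without that of Adgre1 for Grb14. Whether the slopes of a gene on Lep and on Adgre1 differ in size was not tested.

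**Figure D4:**
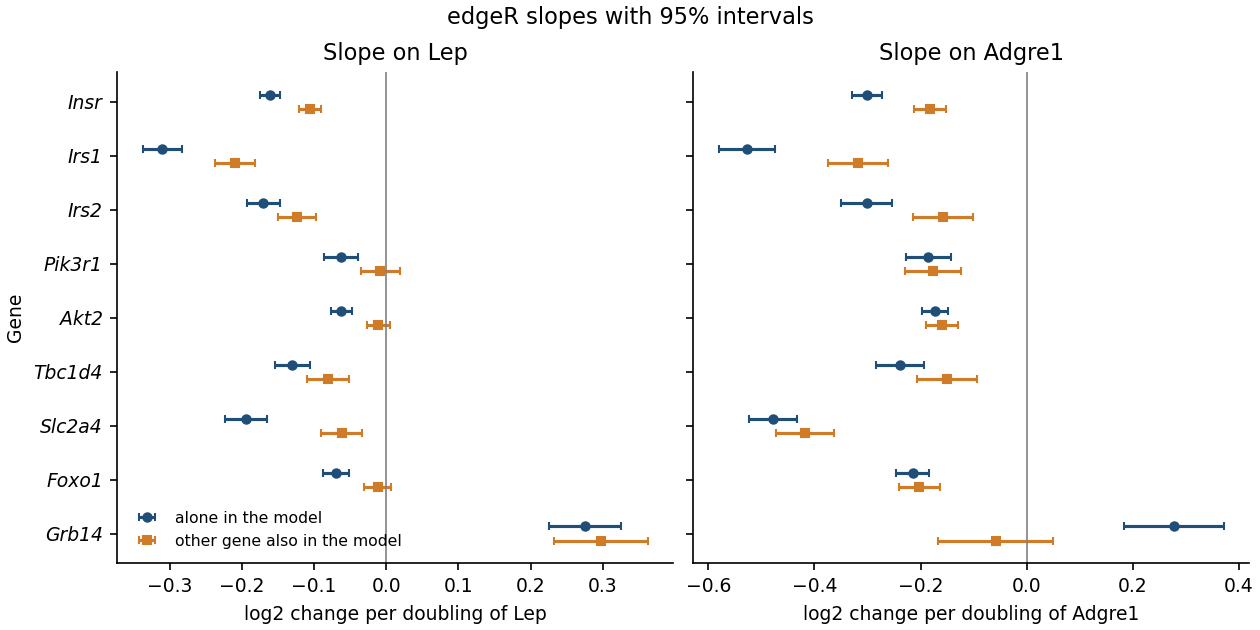
Slope of each gene per doubling of Lep (left) and of Adgre1 (right), on the log2 scale, from edgeR over all libraries, with 95% confidence intervals. Circles are models with 1 of the pair and squares are models with both. The squares of Pik3r1, Akt2 and Foxo1 reach 0 on the left, and that of Grb14 reaches 0 on the right.

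Marker scores of several cell types in the tissue varied with the members. The adipocyte score (mean z-scored log2 CPM of 12 adipocyte markers) had r from 0.31 with Pik3r1 to 0.70 with Akt2 for the 8 genes and -0.37 with Grb14, -0.33 with Lep and -0.62 with Adgre1. The brown fat score had r = 0.72 with Slc2a4, 0.63 with Akt2, 0.58 with Irs1 and with Tbc1d4, 0.21 with Foxo1 and -0.14 with Grb14, and also r = -0.58 with Lep and -0.51 with Adgre1. The macrophage score, which includes Adgre1, had r from -0.72 with Slc2a4 to -0.36 with Pik3r1, and 0.29 with Grb14. The skeletal muscle score had r of at most 0.15 with any of the 9, and 0.12 with Slc2a4. By rank its sign differed for Slc2a4 (rho = -0.12), and rho ranged from -0.18 with Akt2 to 0.11 with Grb14. The endothelial score had r between -0.068 and 0.19. The adipocyte progenitor score ranged from -0.38 with Slc2a4 to -0.10 with Foxo1 and was 0.42 with Adgre1, and the mesothelial score from -0.37 with Grb14 to 0.33 with Foxo1. Given the adipocyte score, r with Lep was -0.715 for Insr, -0.691 for Irs1 and 0.446 for Grb14 and all 9 relations were called, with Akt2 at -0.168 against -0.342 before. With Adgre1 the median r of the 9 was -0.207 given the score against -0.526 without it, from -0.514 for Irs1, -0.482 for Slc2a4 and -0.471 for Insr to -0.284 for Foxo1 and -0.160 for both Akt2 and Irs2, and Grb14 did not pass (r = 0.083, adjusted p = 0.0729, permutation test). The part of cell makeup in these relations was not tested further.

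The labels carry a mouse number and a library number, the only orders they give. Along mouse number, 4 members passed the edgeR test with both numbers in the model. Insr fell by 0.058 ± 0.011 on the log2 scale per 100 mouse numbers (SE, adjusted p = 4.54e-05), Irs1 fell by 0.064 ± 0.022 (adjusted p = 0.022) and Foxo1 fell by 0.046 ± 0.010 (adjusted p = 0.000451), and Pik3r1 rose by 0.042 ± 0.014 (adjusted p = 0.0149), where 12% of 18380 genes fell and 11.7% rose. With Xist and Y chromosome genes in the model, the Irs1 slope on mouse number was -0.0087 (adjusted p = 0.803) and no longer passed. Slopes of the other 5 lay between -0.019 and 0.0029 per 100 mouse numbers. Along library number, 0 members passed with edgeR (0.136% of genes fell and 0.131% rose), and 1, Slc2a4, had an unadjusted p under 0.05, while limma and DESeq2 also called 0 members. With mouse and library number in the Lep and Adgre1 models, all 9 calls stood.

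Other genes of the pathway were taken from a list written from general knowledge, with earlier results of these data known. All but Irs4 and Igfbp1 passed the filter, and the genes moved in both directions with Lep and Adgre1. With Lep 39 rose, 54 fell and 16 were not called, with a median slope of -0.016 against -0.0045 over all genes, and with Adgre1 36 rose, 60 fell and 13 were not called, with a median of -0.0485 against -0.017. Over all genes, 37.9% rose and 41.3% fell with Lep, and 34.4% rose and 43% fell with Adgre1.

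Among 10 adaptors and related receptors past the filter, 4 rose and 4 fell with Lep and 5 rose and 4 fell with Adgre1. Sh2b2, an adaptor of the insulin receptor, fell by 0.24 ± 0.015 on the log2 scale per doubling of Lep and by 0.41 ± 0.028 per doubling of Adgre1, Sh2b1 fell by 0.12 ± 0.0049 with Lep, and Irs3, another docking protein, of rodents, by 0.26 ± 0.025 with Adgre1. Of the other 8 PI3-kinase subunits 6 rose and 2 fell with either gene, and the 2 that fell as Pik3r1 did were the catalytic subunits Pik3ca (by 0.017 ± 0.0029 with Lep) and Pik3cb (by 0.14 ± 0.010), named after their values were seen. Pik3r5 and Pik3cg, subunits known from white blood cells, rose by 0.25 ± 0.018 and 0.19 ± 0.014 with Lep and by 0.85 ± 0.014 and 0.60 ± 0.014 with Adgre1. Of 17 genes for kinases downstream of PI3-kinase and their partners, 11 fell and 4 rose with Lep and 12 fell and 4 rose with Adgre1. Mtor, the kinase of growth control, fell by 0.15 ± 0.0090 and 0.29 ± 0.016, and Gsk3a, a kinase of glycogen synthase, fell by 0.092 ± 0.0041 with Lep.

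The 19 other inhibitors moved in both directions, with 7 rising and 9 falling with Lep and 6 rising and 9 falling with Adgre1. Inpp5d, a lipid phosphatase of blood cells, rose by 0.17 ± 0.013 and 0.57 ± 0.014, and Pid1, a protein that binds a lipoprotein receptor, by 0.13 ± 0.0082 and 0.27 ± 0.015. In the list of GLUT4 vesicle traffic 12 rose and 7 fell with Lep and 9 rose and 10 fell with Adgre1. Ralgapa2, a GTPase-activating protein for Ral, fell by 0.18 ± 0.0085 and 0.33 ± 0.018, the caveolin gene Cav1 rose by 0.23 ± 0.0072 with Lep, and Stxbp3, a syntaxin-binding protein, rose by 0.25 ± 0.0086 with Adgre1. Among 13 other glucose transporters and hexokinases, 5 rose and 5 fell with Lep and 4 rose and 6 fell with Adgre1. Hexokinase 2 (Hk2), which phosphorylates glucose after its uptake, fell by 0.24 ± 0.020 and 0.52 ± 0.032, and Slc2a3 by 0.14 ± 0.028 and 0.31 ± 0.052.

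Of 11 other FOXO genes and targets past the filter, 6 fell and 1 rose with Lep and 7 fell and 2 rose with Adgre1, and Pdk4, the pyruvate dehydrogenase kinase, fell by 0.43 ± 0.024 and 0.64 ± 0.045 and Ccng2 by 0.16 ± 0.012 and 0.26 ± 0.022. All 10 metabolic effectors of insulin fell with both genes, with median slopes of -0.31 and -0.57, where 41.3% of all genes fell with Lep and 43% with Adgre1. Ppp1r3b, a glycogen-targeting subunit of protein phosphatase 1, fell by 0.54 ± 0.035 and 0.88 ± 0.055, Acly, ATP citrate lyase, by 0.45 ± 0.030 with Lep, and Mlxipl, the glucose-sensing factor ChREBP, by 0.70 ± 0.039 with Adgre1. Of these lists, written with earlier results of these data known, the effectors were the only 1 in which every tested gene went the way of Slc2a4 and Irs1.

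**Figure D5:**
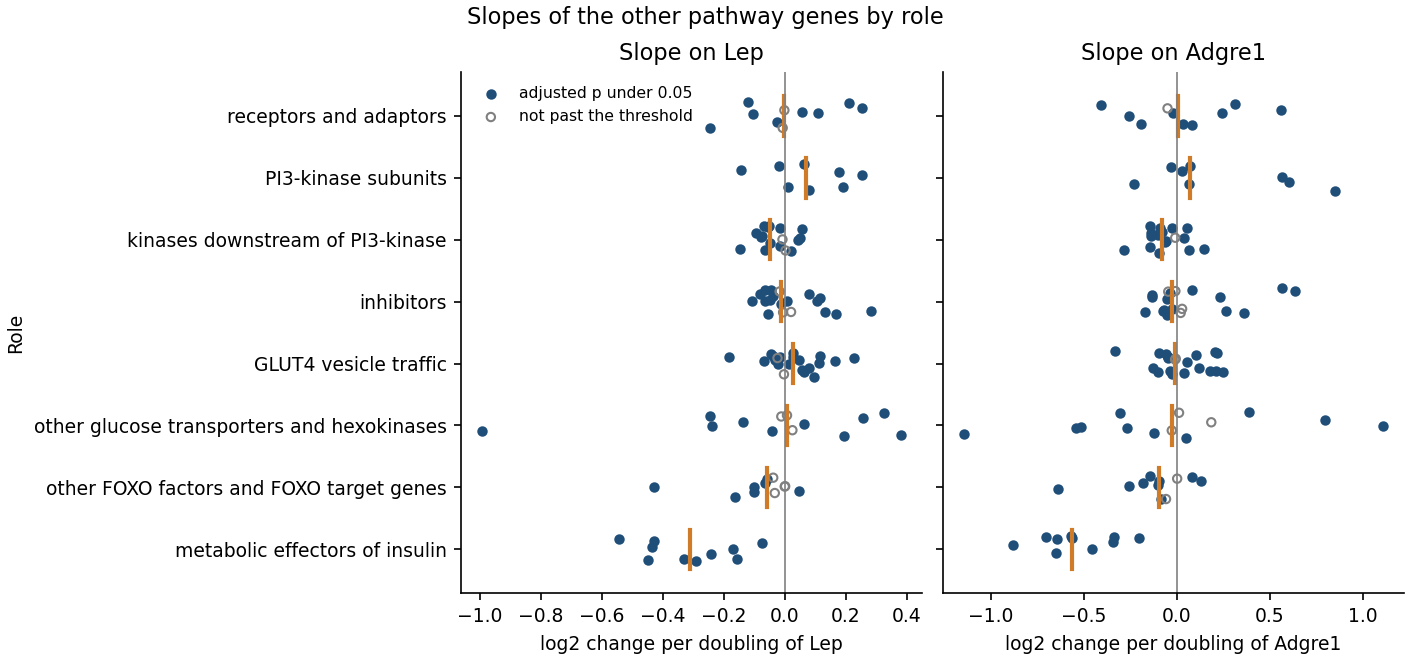
Slopes of the other pathway genes past the filter per doubling of Lep (left) and of Adgre1 (right), on the log2 scale, in rows by role. Filled points passed an adjusted p of 0.05 in edgeR, open points did not, and the orange line is the median of the row. In the bottom row, metabolic effectors of insulin, all 10 points lie left of 0 in both panels, and the other rows spread to both sides.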

How the data were processed

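The authors deposited expected counts per gene for 468 adipose libraries, which GBRS estimated with EMASE, an expectation maximization method, from reads aligned to founder strain transcriptomes. Of these values 66.8% were whole within 1e-06. The authors also deposited variance-stabilized (VST) values from DESeq2 on a log2 scale, which served as an alternative, and gene positions in megabases (unit other). Per the labels the build was GRCm38. Versions, and whether strand was used, were not given in the sources used here. Division of shared reads makes overlapping genes uncertain. No sample column was left unused.

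Counts were rounded for edgeR 4.0.16 and DESeq2 1.42.0. Genes with at least 10 counts in at least 50% of libraries were kept, 18380 of 23180. CPM used the total count times the TMM factor (0.578 to 1.36), and log2 CPM a prior count of 2. Slopes were fitted with edgeR's quasi-likelihood test, glmQLFTest, over all genes on log2 CPM of Lep or Adgre1, or on mouse and library number together, with Benjamini-Hochberg adjustment over all genes tested and a threshold of 0.05, after a test on simulated data. Correlations used two-sided permutation tests of 100000 resamples in numpy 2.4.6. Y chromosome counts were present in 241 libraries and absent in 227. Exon lengths and positions came from GENCODE M21, in which all 23180 identifiers were found and 99.2% had the same position. Each mouse gave 1 library, so the spread joins animal and assay error, and the tests set slopes and correlations against that spread. They took the libraries as independent. Kinship between mice, which the paper used as a random effect in its eQTL mapping, was not in the models. The members and gene lists were chosen with earlier results of these data known. Named genes were the members, Lep and Adgre1, the 3 genes with the highest and the 1 gene with the lowest r for each member among the 9508 with a mean of at least 10 CPM, and, per role of the pathway list, the 2 with the largest slope size on Lep and the 2 on Adgre1 among those called with that mean. One gene that this rule names is not reported here. Mice at the extremes were named after their values were seen. Alternatives were limma 3.58.1 on log2 CPM and on VST values, DESeq2, its size factors, no TMM factor, no filter, a prior count of 0.5, added covariates and left-out libraries. Genotypes, traits and other tissues were not analysed here.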

Additional observations from a re-analysis of the deposited data

How the results depend on the processing

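The slopes on Lep and Adgre1 kept their direction and their side of the threshold with DESeq2, limma, the VST values, DESeq2 size factors, no filter, mouse and library number in the model, and without libraries that were shallow, rich in muscle, apart or farthest. Over all settings, 3 slopes on Lep lost their call (Foxo1, Pik3r1 and Akt2, with Adgre1 in the model) and on Adgre1 that of Grb14 did, in 3 settings. The Grb14 slope on Adgre1 turned to -0.059 with Lep in the model, and was 0.11 (adjusted p = 0.0746, edgeR) with Xist and Y chromosome genes and 0.054 (adjusted p = 0.387) with the adipocyte score. Its r with Adgre1 turned to -0.112 in libraries without Y chromosome counts and to -0.016 given Lep. With no TMM factor, r of Pik3r1 with Lep was -0.050 (adjusted p = 0.283, permutation test). The median r of the 9 was then -0.339 with Lep against -0.414, and -0.310 with Adgre1 against -0.526. Foxo1, for example, had -0.138 with Lep against -0.348 and -0.253 with Adgre1 against -0.538. Only Slc2a4 and Grb14 had r larger in size with no TMM factor. Slopes were not fitted without a TMM factor.

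All 36 pairs were called in the report, against 22 in libraries without Y chromosome counts and 23 given Lep and Adgre1. With no TMM factor 25 were positive and 6 negative past the threshold, with 11 of at least 0.3 against 24, and given the adipocyte score 20 were positive and 6 negative. Over all pairs and settings, 32 values lost their call and 21 changed sign. In libraries without Y chromosome counts, r turned for Foxo1 with Irs1 (-0.128), Pik3r1 (-0.073), Akt2 (-0.103), Tbc1d4 (-0.134) and Slc2a4 (-0.024), for Grb14 with Akt2 (0.168), Tbc1d4 (0.016) and Slc2a4 (0.093), and for Irs2 with Pik3r1 (-0.036). Given the adipocyte score it turned for Irs2 with Pik3r1 (-0.089), Akt2 (-0.080) and Slc2a4 (-0.020), for Pik3r1 with Akt2 (-0.038) and Foxo1 (-0.010), and for Akt2 with Foxo1 (-0.144, adjusted p = 0.00291, permutation test) and Grb14 (0.233, adjusted p = 2e-05). Given Lep and Adgre1 it turned for Pik3r1 with Irs2 (-0.056) and Foxo1 (-0.022) and for Akt2 with Grb14 (0.089), given Xist and Y chromosome genes for Akt2 with Grb14 (0.055), and with no TMM factor for Pik3r1 with Akt2 (-0.021). The cause of these changes was not tested. The median BCV of the 9 genes, 0.346, was 0.299 with both numbers, Xist and Y chromosome genes in the model. The Irs1 slope on mouse number lost its call with Xist and Y chromosome genes (-0.0087, adjusted p = 0.803) and with Lep and Adgre1 in the model (-0.024, adjusted p = 0.245), and 3 members stayed called. Libraries held at least 35.3 M counts, and Grb14, the scarcest member, had the fewest counts. No paired analysis was possible because the libraries formed a single group and shared no replicate numbers.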
